A study of Mus musculus with 12 samples.

Results

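Ndrg1 and 9 genes of the response to low oxygen and of glucose breakdown were followed across mouse cortical neurospheres. The genes were Ndrg1, Egln3, Bnip3, Vegfa, Slc2a1, Hk1, Hk2, Ldha, Pgk1 and Aldoa, and they were found by symbol as 15 of the 21738 probes of the array, or 10 of 15081 named genes. They were chosen by name, and Ndrg1 was selected on its values in these same arrays, where its 24 h groups lay far apart. Its 24 h values, and every comparison that uses them, are therefore given as a description with no test. Neurospheres are free-floating balls of neural stem cells and their progeny, here from cortex of gestational day 12.5 mice, grown without serum and with EGF, basic FGF and LIF. The titles name Control and Prominin cultures and a culture time of 24 or 108 h, which gives 3 arrays to each of 4 groups. Prominin cultures carried an adenovirus that expresses prominin-1 (CD133, named R-prominin1 in the labels), a membrane glycoprotein by which neural stem cells are often recognised. Control cultures are described as grown in medium only, while the design text speaks of GFP, so effects of the virus and of prominin-1 cannot be told apart. For prominin samples titled 24 h the treatment text gives 108 h, and the titles were followed. Every array paired neurosphere RNA (Cy5) with RNA of whole C57/Bl6 embryos of gestational day 12 (Cy3), so each value is a log2 ratio to embryo RNA and not an abundance.

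In cells with enough oxygen, prolyl hydroxylases of the EGLN family mark the alpha subunits of hypoxia-inducible factors (HIF), and the von Hippel-Lindau protein then directs them to degradation. When oxygen is short, the alpha subunits persist, pair with ARNT and bind short elements with an ACGTG or GCGTG core beside their target genes. Among the targets are glucose transporters and glycolytic enzymes, the vessel growth factor VEGF, BNIP3, which takes part in the removal of mitochondria, and EGLN3, which feeds back on the pathway. NDRG1 is a cytoplasmic protein that is raised by low oxygen and repressed by MYC-family factors in many cell types. Neural stem cells are known to rely on glycolysis.

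Most promoter windows of these genes held the core of the HIF element, as did 43.8% of all windows. RefSeq windows of 300 bases, 250 before and 50 after a transcript start on GRCm38.p6, were at hand for 9 of the 10 genes, Ndrg1 being the other, in 14 windows. Both strands were searched for ACGTG and GCGTG, overlapping matches included, so that CACGTG counts as 2. Of the 14 windows 11 held a match, against 43.8% of all 32851 windows of this length, and 1 window each of Aldoa, Hk1 and Vegfa held none. Each of the 9 genes had a match in at least 1 window, and genes with several windows had more chances of a match. The 2 matching Aldoa windows overlap and share 1 match, which was counted in both. For Vegfa and Hk1 the matching window lay inside the gene, and the window at the gene's upstream end held none. The matching Aldoa windows also lay inside the gene, and its most upstream window held none. Both Ldha windows lay inside the gene as well, downstream of its start. The 4 windows below belong to Pgk1, Ldha and Bnip3, which were measured on all 12 arrays, and to Egln3, which had the largest difference at 108 h. They run 5′ to 3′ on the gene's strand, with the matches in capitals.
Pgk1, chrX:106186850-106187149, plus strand: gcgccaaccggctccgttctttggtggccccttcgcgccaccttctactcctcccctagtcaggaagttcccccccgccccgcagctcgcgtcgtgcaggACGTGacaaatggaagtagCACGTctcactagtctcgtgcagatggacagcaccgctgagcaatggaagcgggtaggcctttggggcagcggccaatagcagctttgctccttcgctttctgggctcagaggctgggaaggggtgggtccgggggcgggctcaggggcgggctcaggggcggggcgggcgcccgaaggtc
Ldha, chr7:46845554-46845853, plus strand: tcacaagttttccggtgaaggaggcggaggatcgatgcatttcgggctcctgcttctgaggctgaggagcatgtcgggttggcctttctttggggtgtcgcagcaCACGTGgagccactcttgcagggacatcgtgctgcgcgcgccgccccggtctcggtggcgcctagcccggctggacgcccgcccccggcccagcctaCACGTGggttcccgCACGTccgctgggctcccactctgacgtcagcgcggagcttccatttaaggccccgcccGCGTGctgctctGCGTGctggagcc
Bnip3, chr7:138909457-138909756, minus strand: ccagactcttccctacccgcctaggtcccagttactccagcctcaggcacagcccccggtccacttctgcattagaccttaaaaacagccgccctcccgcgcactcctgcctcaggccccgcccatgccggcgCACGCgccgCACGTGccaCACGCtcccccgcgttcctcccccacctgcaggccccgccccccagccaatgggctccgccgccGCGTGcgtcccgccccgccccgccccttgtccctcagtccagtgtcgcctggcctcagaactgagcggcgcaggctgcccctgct
Egln3, chr12:54203825-54204124, minus strand: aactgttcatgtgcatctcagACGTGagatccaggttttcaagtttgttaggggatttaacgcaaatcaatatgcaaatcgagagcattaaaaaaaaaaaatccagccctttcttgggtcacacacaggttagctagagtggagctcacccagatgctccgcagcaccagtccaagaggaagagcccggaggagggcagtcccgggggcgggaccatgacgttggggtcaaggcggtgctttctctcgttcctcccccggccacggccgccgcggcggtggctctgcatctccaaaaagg
The Ldha window shown held 7 matches, the other Ldha window 2 and that of Bnip3 5, and 1.66% of all windows held 5 or more. Hk1, also measured on all 12 arrays by 1 of its probes, is not shown and held 5 matches in 1 window and 0 in the other. Pgk1 had 2, beginning at −150 and −131 from the start, and Egln3 had 1, beginning at −229. A match describes the letters only, and binding was not measured.

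The deposited table limits what can be said of 24 h. The meaning of an exact 0 and of a repeated top value of 16.61 is not stated in the deposit. Both were treated as missing by choice, and 10404 to 14465 probes were measured on the 24 h arrays against 15944 to 16598 at 108 h. Deposited values equal to a ratio of 2 whole numbers up to 10 were 31.0 to 56.0% of what a 24 h array measured and 3.28 to 9.60% of what a 108 h array measured. Spot intensities were not analysed here, so whether such spots were dim was not tested. Among the 180 values of the 15 probes, 137 were measured, 39 were exact zeros (27 at 24 h) and 4 were at the top code. Of their 59 measured values at 24 h, 25 were such small whole-number ratios, against 1 of 78 at 108 h. The median of the 4532 probes with a value on every array was subtracted from each array, so 0 below is the median probe. The labels do not give the ratio's direction. Sample over embryo is likely from the medians of marker lists on each array. That of neural stem cell genes was above the median probe on 12 of 12 arrays (array medians 1.67 to 4.33). Those of erythroid cells (−7.09 to −2.36), fibroblasts (−7.41 to −3.93) and embryo outside the nervous system (−7.58 to −4.01) were below it on all. Single genes went the other way. Of 16 tested stem cell probes 10 were called higher and 3 lower, namely Id3 (−3.27), Hes1 (−1.66) and Id1 (−1.16). The fibroblast gene Postn averaged 0.46 in controls at 108 h. Array medians of other marker lists ran from 0.42 to 4.49 for astrocytes, 0.68 to 3.92 for the oligodendrocyte lineage, −1.19 to 1.56 for microglia, −3.71 to 0.46 for endothelium and −3.01 to −0.69 for neurons. Prom1, whose probe may not detect the virus transcript, differed by −2.23 at 24 h and 2.58 at 108 h between prominin and control cultures (limma, adjusted p = 0.998 and 0.717), so it does not check the labels. No label says that replicates were separate cultures, and p-values measure the spread between these arrays, which may be technical.

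The tested Ndrg1 probe (NM_008681) was above the median probe on 2 control arrays at 24 h and far below it on the other 8 arrays that measured it. On this probe control cultures at 24 h gave 1.63 and 3.05, with an exact 0 on replicate 2. Prominin cultures at 24 h gave −5.18, −4.25 and −5.29. At 108 h controls gave −5.46 and −3.73, with an exact 0 on replicate 3, and prominin cultures −2.78, −3.74 and −4.31. The order of the group means was Control 24 h (2.34 ± 1.01, SD, n = 2), Prominin 108 h (−3.61 ± 0.78, n = 3), Control 108 h (−4.59 ± 1.22, n = 2) and Prominin 24 h (−4.90 ± 0.57, n = 3). The latter 3 groups overlap, and the control group at 24 h stands apart from each of them. The prominin difference at 24 h, the value that chose the gene, was −7.24 (SE 0.84) on the log2 scale, and the step from 24 h to 108 h in controls was −6.94 (SE 0.92). At 108 h the prominin difference was 0.98 (SE 0.84, limma adjusted p = 0.851), it was 0.57 without prominin replicate 1, and it turned to −0.17 without centring and to −1.07 with exact zeros kept. Since whole cultures were hybridised, fewer cells of a type and less RNA per cell cannot be told apart here.

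Both control values of Ndrg1 at 24 h were small whole-number ratios. Before centring they were −0.42 and 1.58, the ratios 3:4 and 3:1. The other 8 deposited values ran from −6.76 to −4.57, below the lowest ratio that 2 whole numbers up to 10 can give, −3.32. Among control values above 0 at 24 h on tested probes, 38.7% were of that kind. With these ratios left out, too few control values remain for the probe to be tested.

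A second Ndrg1 probe (NM_010884) was measured on 6 arrays and differed in the same direction by less. It read 0.36 and −2.14 in controls at 24 h, neither a small whole-number ratio, and −3.40 in the 1 prominin culture at 24 h that had a value. At 108 h it read −4.01 in 1 control and −1.63 and −3.29 in prominin cultures. Both control values at 24 h lay above the prominin value, with a difference of −2.51, and the step with time in controls was −3.12. The probe had too few values for a test. On the 5 arrays with both probes, the second was 1.02 to 2.11 above the first on 4 arrays and 5.19 below it on Control 24 h replicate 3. Averaging both probes gave a prominin difference of −5.42 (SE 0.65) at 24 h.

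**Figure D1:**
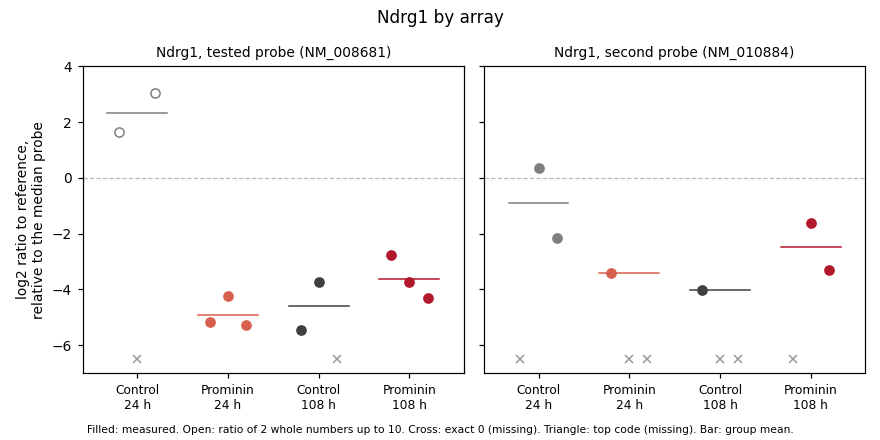
The 2 Ndrg1 probes on each of the 12 arrays, as log2 ratio to embryo RNA relative to the median probe (vertical axis), by group (horizontal axis), with bars for group means, open circles for ratios of small whole numbers and crosses for exact zeros. The control values at 24 h on the left, 1.63 and 3.05, are both open circles, and all other values of that probe lie at −2.78 or lower.

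The named genes whose pattern came closest to the tested Ndrg1 probe over the same 10 arrays, among 4354 named probes, were Clic1, Tbca, Coq7, Grhpr and Snrpa. Pearson's r was 0.88 for Clic1 (a chloride intracellular channel family protein), Tbca (a tubulin folding cofactor) and Coq7 (an enzyme of ubiquinone synthesis), and 0.86 for Grhpr (glyoxylate reductase) and Snrpa (a protein of the U1 splicing particle). Clic1 gave 1.58, 0.65 and 2.98 in controls at 24 h and 0.06 to 0.95 on the other 9 arrays. Such correlations are descriptions, and these rest on Control 24 h replicates 1 and 3. With the other members' probes r ran from −0.69 for Pgk1 to 0.35 for Hk1 L16950, the latter over 6 arrays. It was −0.60 for Ldha and −0.08 for Bnip3 over 10 arrays, and −0.22 for Egln3 over 9.

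Egln3, the oxygen-dependent prolyl hydroxylase that HIF induces, had its highest values in prominin cultures at 108 h. There it read 3.62, 5.71 and 1.78, and controls at 108 h read 1.57, 0.13 and 0.00. At 24 h controls gave 1.20 and −0.53 and prominin cultures −0.08 and 0.11, with 1 exact 0 in each group, and 3 of those 4 values were small whole-number ratios. All 3 prominin arrays at 108 h thus lay above the other 7 that measured the gene, the nearest pair being 1.78 and 1.57. The group means were 0.33 ± 1.22 (SD, n = 2) and 0.01 ± 0.14 (n = 2) in Control and Prominin at 24 h, and 0.57 ± 0.87 (n = 3) and 3.70 ± 1.97 (n = 3) at 108 h. The prominin difference at 108 h was 3.14 (SE 1.01) and did not pass the test (limma adjusted p = 0.717). Without centring the groups overlapped, at −1.32 to 0.26 in controls and −0.55 to 3.93 in prominin cultures. The difference between the prominin effects at the 2 times was 3.45 (SE 1.60, adjusted p = 0.817), and the step with time within prominin cultures 3.69 (SE 1.13, adjusted p = 0.355).

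Bnip3, a mitochondrial outer membrane protein, was measured on all 12 arrays without a small whole-number ratio and stayed close to the median probe. Controls gave −0.17, −0.81 and −0.77 at 24 h and 0.47, −0.78 and 0.34 at 108 h. Prominin cultures gave −0.13, −1.20 and −0.75 at 24 h and 0.94, 0.17 and −0.74 at 108 h. All 6 values at 24 h were below 0, and 4 of 6 at 108 h above it, with overlap. The difference with time was 0.70 (SE 0.45, limma adjusted p = 0.656), and the prominin differences of −0.11 and 0.12 (SE 0.63 each) were smaller than the spread between replicates.

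Vegfa, the vascular endothelial growth factor, could not be tested because controls at 24 h had 1 value, 0.50. Prominin cultures at 24 h read 0.62, 0.14 and 0.91. At 108 h controls read 2.27, 2.54 and 0.92 and prominin cultures 0.85 and 2.12. The mean was 0.54 ± 0.32 (SD, n = 4) at 24 h and 1.74 ± 0.79 (n = 5) at 108 h, and the ranges met only between 0.85 and 0.91. All 9 values lay above the median probe.

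Slc2a1 and the hexokinases, which bring glucose into the cell and commit it to use there, spread widely between arrays of a group. Slc2a1, the glucose transporter GLUT1, gave 1.02 in the 1 measured control at 24 h and −0.67 and 2.25 in prominin cultures. At 108 h it gave 1.75, −0.85 and 0.74 in controls and −1.45, 2.22 and −0.50 in prominin cultures, so no order of groups can be read from it. Hk1, the main hexokinase of brain, has 4 probes, which share a gene and are not replicates. The probe measured on all arrays (U89409) gave 1.78, 2.96 and 2.55 in controls and 0.68, 2.53 and 1.99 in prominin cultures at 24 h. At 108 h it gave 0.85, 6.44 and 1.36 in controls and −1.40, 0.38 and 0.58 in prominin cultures. Every prominin value at 108 h lay below every control value. The difference of −3.03 (SE 1.27, limma adjusted p = 0.717) was −1.25 without control replicate 2, the array with 6.44.

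A second Hk1 probe (NM_010438) showed opposite differences at the 2 times, neither past the test. At 24 h controls gave 1.04 and 0.47 and prominin cultures 2.55 and 2.72, all 4 small whole-number ratios. At 108 h controls gave 1.87 and 2.14 and prominin cultures 0.19 and 0.82. The groups did not overlap at either time, and the differences were 1.88 (SE 0.74, limma adjusted p = 0.998) and −1.50 (SE 0.74, adjusted p = 0.732). The difference between these effects was −3.38 (SE 1.04, adjusted p = 0.812). Another Hk1 probe (L16950) ranged from −1.01 to 4.14 over 8 arrays, with differences of −0.26 at 24 h and −0.76 at 108 h (SE 1.91 each). The last (L16948) had values on 4 arrays at 108 h alone, 1.44 and 1.50 in controls and 2.40 and 1.35 in prominin cultures. The 3 tested Hk1 probes thus differed in sign at 24 h, where that of L16950 turned to 0.71 without centring, and were all negative at 108 h. Averaged to 1 gene, Hk1 differed by −0.03 (SE 0.81) and −1.51 (SE 0.81, adjusted p = 0.756).

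Hk2, the hexokinase that HIF induces, was measured on 8 arrays by each of 2 probes, neither testable. The first (NM_013820) gave 0.72 and 0.60 in controls at 24 h, exact zeros in all 3 prominin cultures at 24 h, 0.46, 0.16 and −2.81 in controls at 108 h and −0.40, 3.05 and 0.06 in prominin cultures. The second (X96699) gave 1.88 in 1 control and 2.96 and 2.21 in prominin cultures at 24 h, all small whole-number ratios. At 108 h it gave −0.17 and 3.53 in controls and −0.84, 1.16 and 1.93 in prominin cultures. At 108 h the groups overlapped on both probes. Averaged to 1 gene, Hk2 differed by 1.61 (SE 0.91, limma adjusted p = 0.991) at 24 h and 0.61 (SE 0.74, adjusted p = 0.926) at 108 h. The average at 24 h mixes the probes, since the first had no prominin value. The averaged level was 1.15 (SE 0.29, limma adjusted p = 0.00815) above the median probe, where 55.8% of tested single probes were called and 30.4% called higher. This level also mixes the probes, whose own means over their arrays were 0.23 (NM_013820) and 1.58 (X96699). Before centring those means were −1.48 and −0.06.

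Ldha and Pgk1, enzymes of the lower part of glycolysis, varied little between replicates. Ldha, which turns pyruvate into lactate, gave −1.21, 0.32 and −1.02 in controls and 0.07, −0.28 and −0.45 in prominin cultures at 24 h. At 108 h it gave 0.44, 0.71 and 0.27 in controls and 1.35, 0.40 and 1.04 in prominin cultures. Thus 5 of the 6 values at 24 h lay below all 6 at 108 h, the exception being Control 24 h replicate 2 at 0.32. The mean was −0.43 ± 0.60 (SD, n = 6) at 24 h and 0.70 ± 0.42 (n = 6) at 108 h, a difference of 1.13 (SE 0.41) that did not pass the test (limma adjusted p = 0.386). Prominin differences were 0.42 at 24 h and 0.46 at 108 h (SE 0.58 each), the latter −0.62 without centring.

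Pgk1, the phosphoglycerate kinase that makes ATP in glycolysis, lay above the median probe on 12 of 12 arrays and within 0.03 to 1.26. Controls gave 0.03, 1.12 and 0.17 at 24 h and 1.18, 0.19 and 1.26 at 108 h. Prominin cultures gave 0.40, 0.72 and 0.71 at 24 h and 0.41, 0.92 and 0.70 at 108 h. Groups overlapped throughout, with prominin differences of 0.17 and −0.20 (SE 0.55 each). Of all tested probes, 5.85% had a smaller residual SD than Pgk1 (0.45) and 8.72% a smaller one than Ldha (0.51), against a median of 1.19. Aldoa, the aldolase that splits fructose bisphosphate, had 9 measured values. It gave 2.05 in 1 control and 0.72 and −0.01 in prominin cultures at 24 h, 0.37, 2.79 and 1.81 in controls at 108 h, and 4.48, −1.41 and 1.71 in prominin cultures. Its prominin values at 108 h enclosed those of the controls.

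**Figure D2:**
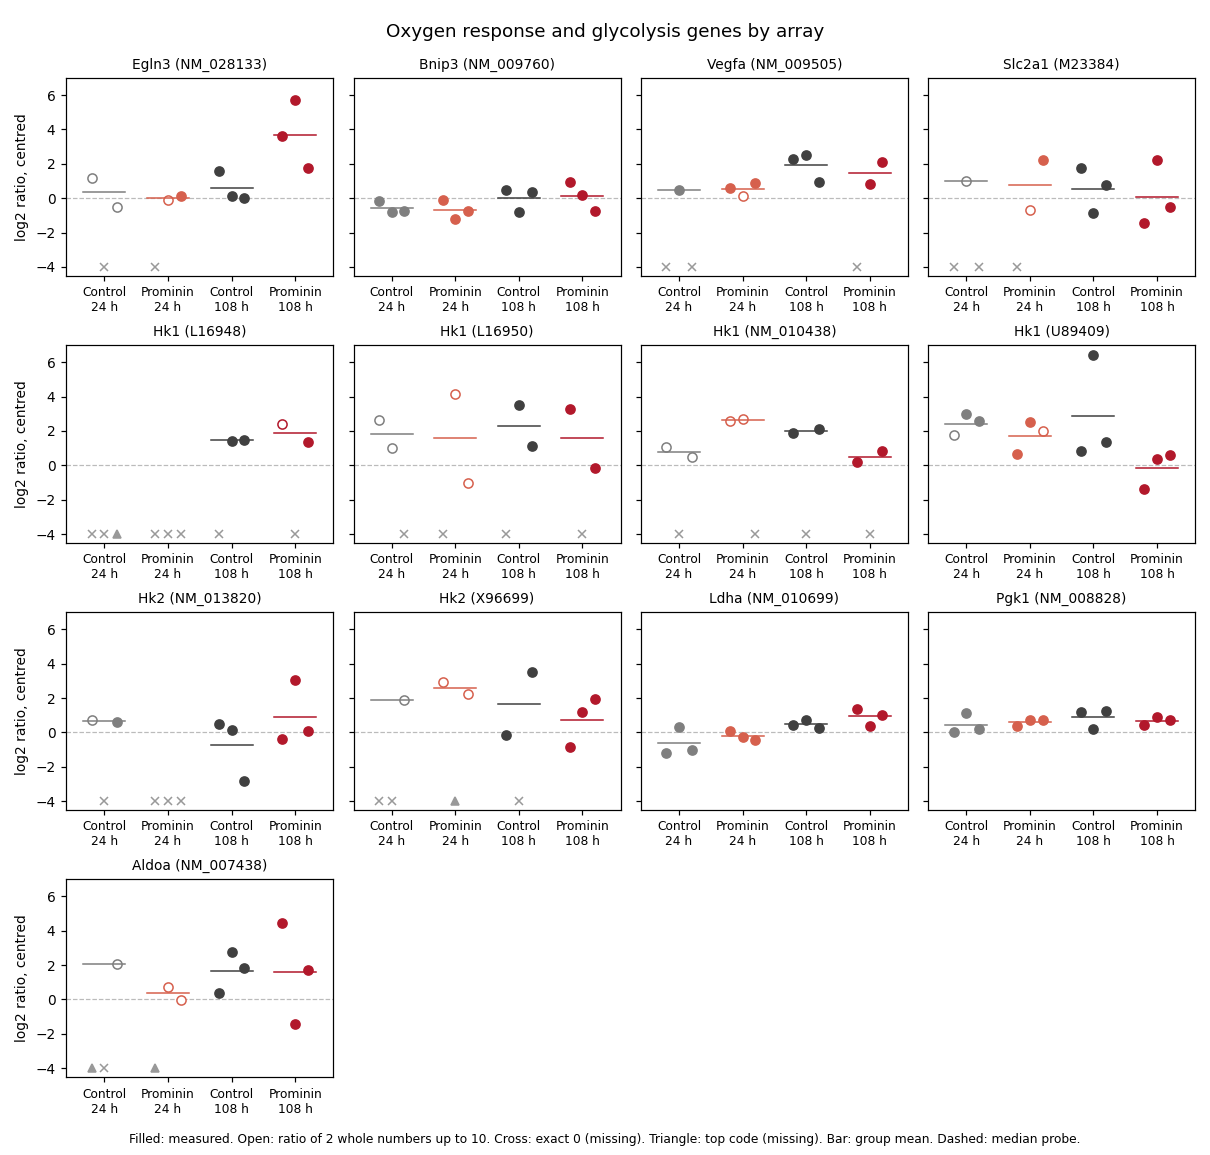
The other 13 probes of the 10 genes on each array, as log2 ratio to embryo RNA relative to the median probe (vertical axis), by group, with bars for group means, open circles for small whole-number ratios, and crosses and triangles at the lower edge for exact zeros and the top code. Egln3 is highest in the 3 prominin arrays at 108 h (1.78 to 5.71), while Bnip3, Ldha and Pgk1 stay within −1.21 to 1.35.

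No member probe given a test was called between prominin and control cultures, and Ndrg1 was given none at 24 h. Having 2 or more values per group, 8 probes of 6 genes were tested, and Vegfa, Slc2a1, Hk2 and Aldoa were not tested at probe level. At 24 h the 7 tested probes other than Ndrg1 split into 3 higher and 4 lower, with a median of −0.11 against −0.10 over all 9155 tested probes. Their limma adjusted p ran from 0.998 to 0.999, and the background was 0.0% of all probes called (419 at an unadjusted p under 0.05). At 108 h they again split into 3 higher and 4 lower, with a median of −0.20 against 0.00, adjusted p from 0.717 to 0.985 and a background of 0.0% (624 unadjusted). The difference between the 2 prominin effects and the prominin difference over both times also had a background of 0.0% each, with 545 and 463 probes at an unadjusted p under 0.05. Centring removed shifts between groups of 0.68 at 24 h and −1.08 at 108 h, and differences are relative to these.

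Groups that do not overlap were about as common among the members as among all probes. At 24 h, with at least 2 values in each group, they were seen for 2 of 8 member probes, Ndrg1 and Hk1 (NM_010438), against 17.4% of 10265 probes. The Ndrg1 count is what the choice fixed. At 108 h they were seen for 3 of 14, Egln3 and 2 Hk1 probes, against 18.0% of 14528 probes. Between the times, with at least 4 values at each, they were seen for 0 of 9, against 1.97% of 10430.

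With time, 5 of the 7 tested probes were higher at 108 h over both cultures, against 48.3% of all tested probes, and Hk1 supplied more than 1 of the 7. Their median was 0.26 against −0.03 over all probes. Adjusted p in limma ran from 0.386 for Ldha to 0.976, and 5 of 9155 probes were called, 0.0546%, with 0 members among them. Within controls all 7 were higher at 108 h, against 47.5% of all tested probes, with a median of 0.49 against −0.06. Adjusted p in limma ran from 0.740 to 0.986, with a background of 0.0% (635 unadjusted). Other members mostly fell in controls. Slc2a1 (−0.48), Aldoa (−0.4) and Hk2 X96699 (−0.2) were lower and Vegfa (1.42) higher, each from 1 value at 24 h. Hk2 NM_013820 went from 0.66 to −0.73, and the Ndrg1 probes differed by −6.94 and −3.12. Hk1 L16948 had no value at 24 h. Within prominin cultures 4 were higher, against 50.3% of all tested probes, 0 of the 7 were called, and the background was 0.0218%. Small whole-number ratios were also rarer on every 108 h array than on every 24 h array, and their part in these steps was not tested.

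**Figure D3:**
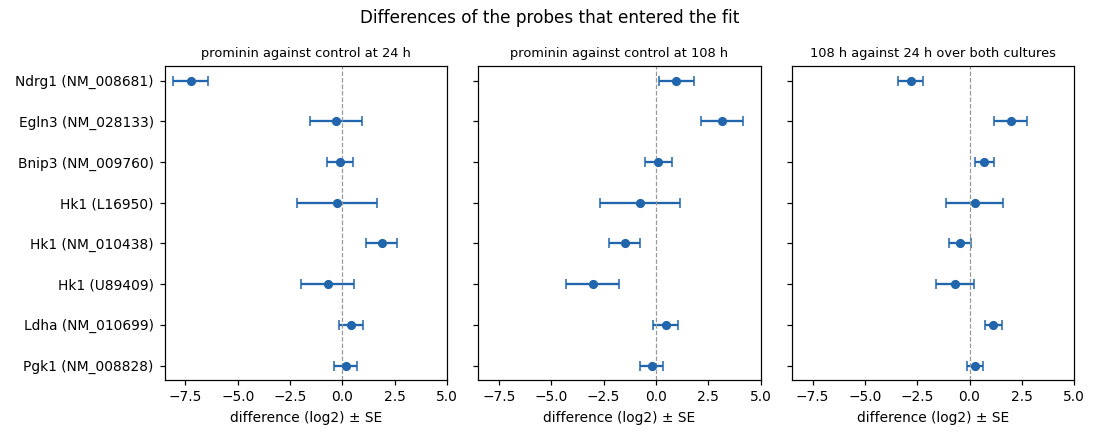
Difference (log2, horizontal axis) with its SE for the 8 tested probes (vertical axis) in 3 comparisons: the prominin difference at 24 h, that at 108 h, and the step from 24 h to 108 h over both cultures. Ndrg1 at −7.24 (24 h) was chosen for that value, and Egln3 (3.14) and Hk1 U89409 (−3.03) lie farthest from 0 at 108 h.

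Set against embryo RNA, 6 of the 7 tested probes other than Ndrg1 stood above the median probe, 4 of them past the test. Of all tested probes, called or not, 55.8% stood above it. The 3 tested probes of the 1 gene Hk1 were all among the 6. Over the 4 groups, Hk1 NM_010438 lay at 1.48 (SE 0.26, limma adjusted p = 0.00218), Hk1 U89409 at 1.72 (SE 0.45, adjusted p = 0.00711), Pgk1 at 0.65 (SE 0.19, adjusted p = 0.0148) and Egln3 at 1.15 (SE 0.40, adjusted p = 0.0334). The background was 55.8% of probes called in either direction and 30.4% called higher. In the deposited values, which are relative to 0 and not to the median probe, Hk1 NM_010438 (−0.22), Pgk1 (−0.95) and Egln3 (−0.40) lay below 0. Under the alternatives the call of Hk1 U89409 was lost in 4 of 22, that of Egln3 lost in 4 and turned in 3 of 17, that of Hk1 NM_010438 lost in 1 and turned in 3 of 12, and that of Pgk1 turned in 4 of 23. Hk1 L16950 at 1.82 (SE 0.67, adjusted p = 0.0521), Ldha at 0.14 (SE 0.20) and Bnip3 at −0.29 (SE 0.22) did not pass. Ndrg1 lay at −2.69 (SE 0.30), with its level at 24 h part of the choice.

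The 4 probes measured on all 12 arrays differed in how they ran together. After centring Pearson's r was 0.39 for Bnip3 with Ldha, 0.35 for Ldha with Pgk1 and 0.20 for Bnip3 with Pgk1. Hk1 (U89409) ran against them, at −0.67 with Bnip3, −0.25 with Ldha and −0.23 with Pgk1. In the deposited values, which share each array's own shift, r was −0.01 for Hk1 with Bnip3 and 0.26 to 0.52 for the other 5 pairs. Each r is a description over 12 arrays that share a reference and differ in the number of measured probes.

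In the wider pathway no gene was called either. In 6 lists of related genes, 61 genes with 66 probes were tested, and 0 were called by limma in any of the 3 comparisons. At 24 h 34 probes were higher and 32 lower in prominin cultures (median 0.06, lowest adjusted p 0.998, 3 at an unadjusted p under 0.05). At 108 h it was 32 and 34 (median −0.05, lowest adjusted p 0.725, 1 unadjusted). With time 37 were higher and 29 lower (median 0.08, lowest adjusted p 0.277, 10 unadjusted, against 888 of 9155 probes).

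Oxygen sensing, from HIF subunits to the von Hippel-Lindau complex, had 12 of 16 genes tested. Prominin differences were higher for 7 and lower for 5 at 24 h (median 0.14) and 6 and 6 at 108 h (median −0.02). Epas1, which encodes HIF-2 alpha, stood 3.96 above the median probe (SE 0.29, limma adjusted p = 8.34e-07), and its prominin difference at 108 h was −1.66 (SE 0.81, adjusted p = 0.725). Cited2, a HIF-induced protein that competes for the coactivators CBP and p300, gave 2.02 (SE 0.98, adjusted p = 0.725) at 108 h, and Ep300 itself −1.87 (SE 0.77, adjusted p = 0.998) at 24 h. Egln1, the main oxygen sensor of the family, lay at −3.21 and Vhl at −1.06 (adjusted p = 0.000897 and 0.00216).

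Other HIF targets had 19 of 32 genes tested with 23 probes. Of these 6 were higher and 17 lower in prominin cultures at 24 h (median −0.41) and 14 higher and 9 lower at 108 h (median 0.35). Over all tested probes 46.0% were higher at 24 h and 50.1% at 108 h. Trf and Tfrc each supplied more than 1 probe to these counts, all lower at 24 h and all but Trf M23013 higher at 108 h. Markers of embryo tissue outside the nervous system had 0 higher and 8 lower at 24 h (median −1.16) and 8 and 0 at 108 h (median 1.11), and erythroid markers 1 and 3 (median −1.28), then 4 and 0 (median 1.99), with 0 called. Their part in the counts of HIF targets was not tested. Hmox1, the heme-degrading oxygenase, gave 1.71 (SE 0.71) at 24 h and 1.50 (SE 0.50, limma adjusted p = 0.342) with time. Plod2, a collagen lysyl hydroxylase, gave −2.13 (SE 0.95) at 24 h, where the adjusted p of both genes was 0.998. Trf, the iron carrier transferrin, has 4 tested probes, of which M23015 gave 1.82 (SE 0.80) at 108 h and M23016 gave 1.50 (SE 0.82), with adjusted p of 0.725 and 0.743. Probe J03299 gave 1.21 and M23013 gave −1.74 (SE 1.84) at 108 h. With time all 4 probes were higher at 108 h, by 1.70 to 2.74, with adjusted p of 0.299 for M23015 and 0.350 for M23016. All 4 Trf probes lay far below the median probe, at −6.86 to −5.45, as did the lists of embryo tissues outside the nervous system. Adm, the vasodilator adrenomedullin, lay at 3.47 (SE 0.47, adjusted p = 0.000129).

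Among other glycolysis genes 9 of 23 were tested with 10 probes, 7 higher and 3 lower in prominin cultures at 24 h (median 0.15) and 2 and 8 at 108 h (median −0.20). Eno2, the neuronal enolase, gave 1.64 (SE 0.77, limma adjusted p = 0.998) at 24 h and stood 3.27 above the median probe. Ldhb, the partner subunit of LDHA, lay at 1.28 and the platelet phosphofructokinase Pfkp at −4.20. Genes that carry pyruvate into the citrate cycle, 8 of 13 tested, were higher for 6 and lower for 2 at 24 h (median 0.69) and 3 and 5 at 108 h (median −0.24). In the VEGF and angiopoietin family, 5 of 12 tested, 1 was higher and 4 lower at 24 h (median −0.66) and 3 and 2 at 108 h (median 0.06). Flt4, the receptor of VEGF-C, had the lowest unadjusted p with time, at −2.72 (SE 0.73, adjusted p = 0.277).

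None of the tested relatives of Ndrg1 was called. Of the NDRG, MYC and SGK list 8 of 11 genes were tested, 7 higher and 1 lower in prominin cultures at 24 h (median 0.73) and 4 and 4 at 108 h (median 0.24). Ndrg2, an astrocyte-enriched member, differed by 0.79 at 24 h and −0.93 at 108 h, Ndrg3 by 0.51 and −1.28, and Ndrg4 by 0.71 and 0.76 (limma adjusted p from 0.791 to 0.999). Myc, whose product represses Ndrg1 in other cells, differed by 0.55 and −0.28 (adjusted p = 0.998 and 0.978). Ndrg2 stood 3.48 above the median probe, Ndrg4 lay at −0.03 and Ndrg3 at −1.86.

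**Figure D4:**
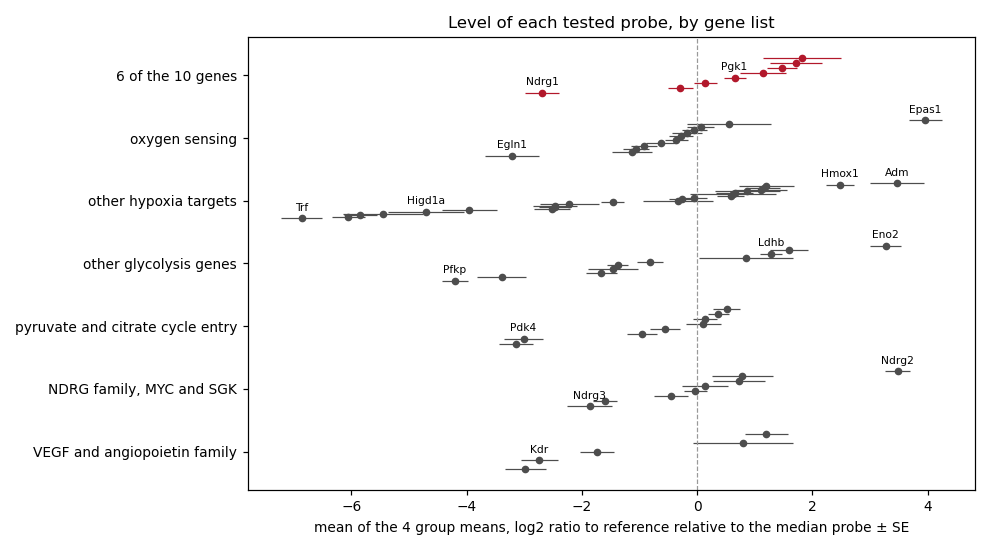
Mean of the 4 group means with its SE for each tested probe, as log2 ratio to embryo RNA relative to the median probe (horizontal axis), for 6 of the 10 genes in red and for 6 lists of related genes in grey (vertical axis). Epas1 (3.96), Adm (3.47), Eno2 (3.27) and Ndrg2 (3.48) stand to the right, and the Trf probes (−6.86 to −5.45) to the left, of the median probe at 0.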

How the data were processed

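RNA of 12 neurosphere samples was hybridised with a shared embryo reference on 2-colour mouse arrays, without a dye swap. The deposited values were read as log2 ratios from their range. Over the probes measured on all arrays, the array medians ran from −2.59 to −0.84, and scale, centring and direction are not stated. Scanner, software and normalization by the authors are not given in the sources at hand. Exact zeros and the top code of 16.61 in the deposited log2 table were set to missing, and the median of the 4532 probes with a value on all 12 was subtracted from each array. Depth is unknown, and the number of arrays limits the precision.

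Symbols came from a probe annotation that can be old: 16620 probes had 1 symbol, 113 several and 5005 none, and 15943 of the named probes were found by gene identifier in a RefSeq gene table (GRCm38.p6). The 9155 probes with at least 2 values in each group were fitted in limma 3.58.1 (R 4.3.3) with 1 mean per group, moderated variance and Benjamini-Hochberg adjustment over all probes of a comparison, at a threshold of 0.05. All 12 arrays entered each fit, and a probe's missing arrays dropped out of its own fit. The fit was tested on simulated data. A small whole-number ratio is a deposited value within 0.0005 of the log2 of a ratio of whole numbers up to 10.

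The members and the gene lists were chosen with earlier results of these data known. The text names every probe of the 10 genes, in each list comparison the 4 probes with the smallest unadjusted p, and the 5 named genes most correlated with Ndrg1. Levels of other list genes were chosen after their values were seen. Alternatives changed the centring, the codes, the filters, the variance model and the arrays used.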

Additional observations from a re-analysis of the deposited data

How the results depend on the processing

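The 32 results of the tested member probes were recomputed under 608 alternatives: 39 turned in direction, 9 lost and 5 gained a call, and 19 results never turned. Over their alternatives the Ndrg1 difference at 24 h ran from −7.57 to −6.46, that of Egln3 at 108 h from 2.06 to 4.10 and the Ldha step with time from 0.94 to 1.49. Every one of these Ndrg1 fits kept both control values at 24 h, which chose the gene, so its range cannot test them. The average of both Ndrg1 probes, −5.42, is not part of that range. With small whole-number ratios left out, or without Control 24 h replicate 1 or 3, Ndrg1 could not be fitted.

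Prominin differences at 24 h turned for Hk1 L16950 (0.71 without centring, 0.41 with quantile normalization, 0.12 with exact zeros kept, 0.47 with both codes kept), Bnip3 (0.57, 0.12, 0.22 and 0.57 in the same order) and Egln3 (0.38 without centring, 0.25 with both codes kept). At 108 h they turned for Ndrg1 (−0.17 without centring, −1.07 with zeros kept, −1.51 with both codes kept), Bnip3 (−0.96 without centring, −0.41 with both codes kept) and Ldha (−0.62 and −0.07). Leaving out an array in turn, Bnip3 ran from −0.39 to 0.14 at 24 h and −0.29 to 0.55 at 108 h, and Pgk1 from −0.04 to 0.51 at 24 h. The step with time became −0.17 for Hk1 L16950 with quantile normalization and 0.00 for Hk1 NM_010438 with zeros kept. Levels turned without centring, with quantile normalization and with both codes kept: Pgk1 −0.95, −0.91 and −0.81, Hk1 NM_010438 −0.22, −0.04 and 0.00, Ldha −1.46, −1.52 and −1.32, Egln3 −0.40, −0.51 and −0.05. Without centring and with quantile normalization no array median was subtracted. With both codes kept the subtracted median counted the codes as values. With zeros kept Pgk1 lay at −0.33 and Ldha at −0.85.

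Counts of called probes were small and moved. At 24 h 1 was called with zeros kept (S100a8), 26 with both codes kept, 1 with probes averaged to genes (Ndrg1) and 0 to 1 without an array, the 1 being Ndrg1 without Control 24 h replicate 2. The same values chose Ndrg1, so these calls add no support. At 108 h 1 was called with zeros kept. The difference of the 2 effects gave 23 with both codes kept. Prominin over both times gave 1 with zeros kept, 25 with both codes kept and 1 without small whole-number ratios. Time in controls gave 11 with both codes kept, 3 without small whole-number ratios and 2 on probes measured on all arrays. Time in prominin cultures gave 7 without centring, 16 with both codes kept, 17 without small whole-number ratios, 1 with probes averaged, 21 on probes measured on all arrays, 7 without moderation, 0 with only the groups compared and 1 to 3 without an array. Time over both cultures gave 3 with zeros kept, 26 with both codes kept, 22 without small whole-number ratios, 2 with at least 1 value per group, 34 on probes measured on all arrays, 36 without moderation, 16 with array weights and 2 to 17 without an array, 17 without Control 24 h replicate 1. Levels gave 2797 on probes measured on all arrays, where fewer are tested. The cause of the other changes was not tested.

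With the replicate number as a block the Hk1 L16950 difference at 24 h was 1.83, and time over both cultures called 2. Deviations of same-numbered arrays correlated at −0.067 to 0.122 (median 0.05, 18 pairs) and of others at −0.12 to 0.121 (median −0.021, 36 pairs), and the best partner had the same number in 23 of 36 choices and not in every array, a hint from the data only, so the numbers were not taken to pair samples. Small whole-number ratios and missing values at 24 h, no dye swap and 3 arrays a group limit all comparisons.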
